A study of Mus musculus with 4 samples.

Results

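Heat shock proteins are the cell's general protein-folding machinery. The genes described here encode the main ones of the cytosol and of the mitochondrial matrix: the HSP70 proteins Hspa1a, Hspa1b and Hspa8, their partners Dnajb1 and Hsph1, the HSP90 proteins Hsp90aa1 and Hsp90ab1, the small heat shock protein Hspb1, and the chaperonin subunits Hspd1 and Hspe1. They were matched by gene symbol, and 9 of the 10 genes were matched by 22 of the 45037 probe sets other than controls. Hsp90ab1 was matched by none in the annotation used here and was not analysed. No probe set was assigned to Hspa1a and Hspa1b together. A gene's main value is that of its brightest probe set, judged by the mean of the 4 arrays.

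Hearts of mice carrying a Ser9Ala replacement in the kinase GSK-3beta (genotype label GSK-3beta S9A, aged 3.5 months, 2 arrays) were compared with hearts of wild-type mice (aged 3.6 months, 2 arrays). All were of the strain labelled C57B6 and were taken at baseline. Serine 9 is the site at which phosphorylation inhibits GSK-3beta, and the replacement removes it. Whether each array holds RNA of its own animal is not stated in the labels, so the p-values below reflect only the spread among the arrays at hand, and that spread may be technical. Sex, time of day and the part of the heart are not given in the sources used here.

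HSP70 proteins bind exposed stretches of unfolded protein and release them in a cycle driven by ATP. J-domain proteins such as Dnajb1 deliver clients and start the cycle, and HSP110 proteins such as Hsph1 end it by exchanging the nucleotide. HSP90 acts later, on signalling proteins that are nearly folded, and the chaperonin of Hspd1 and Hspe1 folds proteins imported into mitochondria. Many of these genes are induced by the heat shock factor Hsf1 through heat shock elements, inverted repeats of the letters GAA, while Hspa8 and Hsp90ab1 are also made at high levels without stress.

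The promoters are shown first, because heat shock elements are the known route by which Hsf1 acts on such genes. RefSeq promoter windows of assembly GRCm38.p6, each running from 250 bases before to 50 bases after a start site, were matched for 7 of the 10 genes in 10 windows. Both strands were searched for 2 units (GAANNTTC or TTCNNGAA) and for 3 units, in which the next inverted repeat follows at the same spacing, so that every 3-unit match also contains 2-unit matches. The 2-unit letters stood in 7 of the 10 windows, of 6 genes, compared with 15.1% of all 32851 windows of the same length. The 3-unit letters stood in 4 of the 10 windows, of Hspd1, Hspe1 and Hsph1, compared with 0.603% of all windows. Hsph1 had overlapping windows that held the same 3-unit stretch, and the Hspe1 window shared its stretch with a Hspd1 window. The counts of windows, for 2 units as well, therefore include some of the same letters more than once. Neither form was found in the windows of Dnajb1, which says only that these letters are not in those windows. A match describes letters and not a site shown to be bound. In the sequences below, read 5′ to 3′ on the gene's strand and ending at the base before the first listed start site, capitals mark the heat shock element letters.
Hspa1a: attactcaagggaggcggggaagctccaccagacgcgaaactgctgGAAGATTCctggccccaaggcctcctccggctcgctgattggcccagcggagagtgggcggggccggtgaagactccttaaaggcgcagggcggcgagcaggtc
Hspa1b: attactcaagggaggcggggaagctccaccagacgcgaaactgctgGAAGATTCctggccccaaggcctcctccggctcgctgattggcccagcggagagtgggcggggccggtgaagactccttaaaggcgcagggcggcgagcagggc
Hsph1: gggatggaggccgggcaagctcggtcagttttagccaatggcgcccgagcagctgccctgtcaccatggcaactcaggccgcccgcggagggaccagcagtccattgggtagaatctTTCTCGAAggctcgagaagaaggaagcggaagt
Hspb1: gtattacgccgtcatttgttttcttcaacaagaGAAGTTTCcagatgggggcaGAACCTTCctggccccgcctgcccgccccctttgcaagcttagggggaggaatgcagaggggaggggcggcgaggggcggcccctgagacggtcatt
Hspe1: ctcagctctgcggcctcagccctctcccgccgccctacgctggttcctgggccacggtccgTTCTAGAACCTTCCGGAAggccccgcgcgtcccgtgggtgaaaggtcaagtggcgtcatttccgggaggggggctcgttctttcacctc

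These stretches lie at chr17:34972157-34972306 (minus strand) for Hspa1a, chr17:34959239-34959388 (minus strand) for Hspa1b, chr5:149636337-149636486 (minus strand) for Hsph1, chr5:135887769-135887918 (plus strand) for Hspb1 and chr1:55087998-55088147 (plus strand) for Hspe1. The Hspa1a and Hspa1b windows were the same at 296 of 300 positions. Hspe1 and Hspd1 are transcribed away from each other, and 285 bases of the Hspe1 window overlap one of the Hspd1 windows, so that the element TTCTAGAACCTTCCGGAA lies in both. The 3-unit letters of Hsph1, TTCTGGAAAGTTC at chr5:149636288-149636300, follow its first listed start site, at bases 37 to 49.

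No heat shock gene passed the test between knock-in and wild-type hearts. Hsph1 lay lower in both knock-in arrays than in both wild-type arrays, whereas Hspa1a, Hspa1b and Dnajb1 were highest in the second knock-in array and close to wild-type in the first. The mitochondrial chaperonin genes Hspd1 and Hspe1 differed least. Differences were fitted with limma over all probe sets, two-sided, with Benjamini-Hochberg adjustment at 0.05, where 0 of 45037 probe sets (0%) passed and 2628 (5.84%) had an unadjusted p under 0.05. Of the 22 heat shock probe sets, 3 had an unadjusted p under 0.05, 1 of them higher (2.84% of all probe sets) and 2 lower (3.0%). Knock-in arrays lay wholly above wild-type arrays for 4 of the 22 (15.7% of all probe sets) and wholly below for 5 (18.2%). The median difference of the 9 genes was -0.08 on the log2 scale, compared with -0.01 over all probe sets and 0.00024 over 1 probe set per gene, and it was 0.11 without wild-type 2. With 2 arrays a group, an exact permutation test cannot go below p = 0.333, so limma's pooling of the spread across probe sets carries the test. In a tissue sample, fewer cells of a type and less RNA per cell cannot be told apart.

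**Figure D1:**
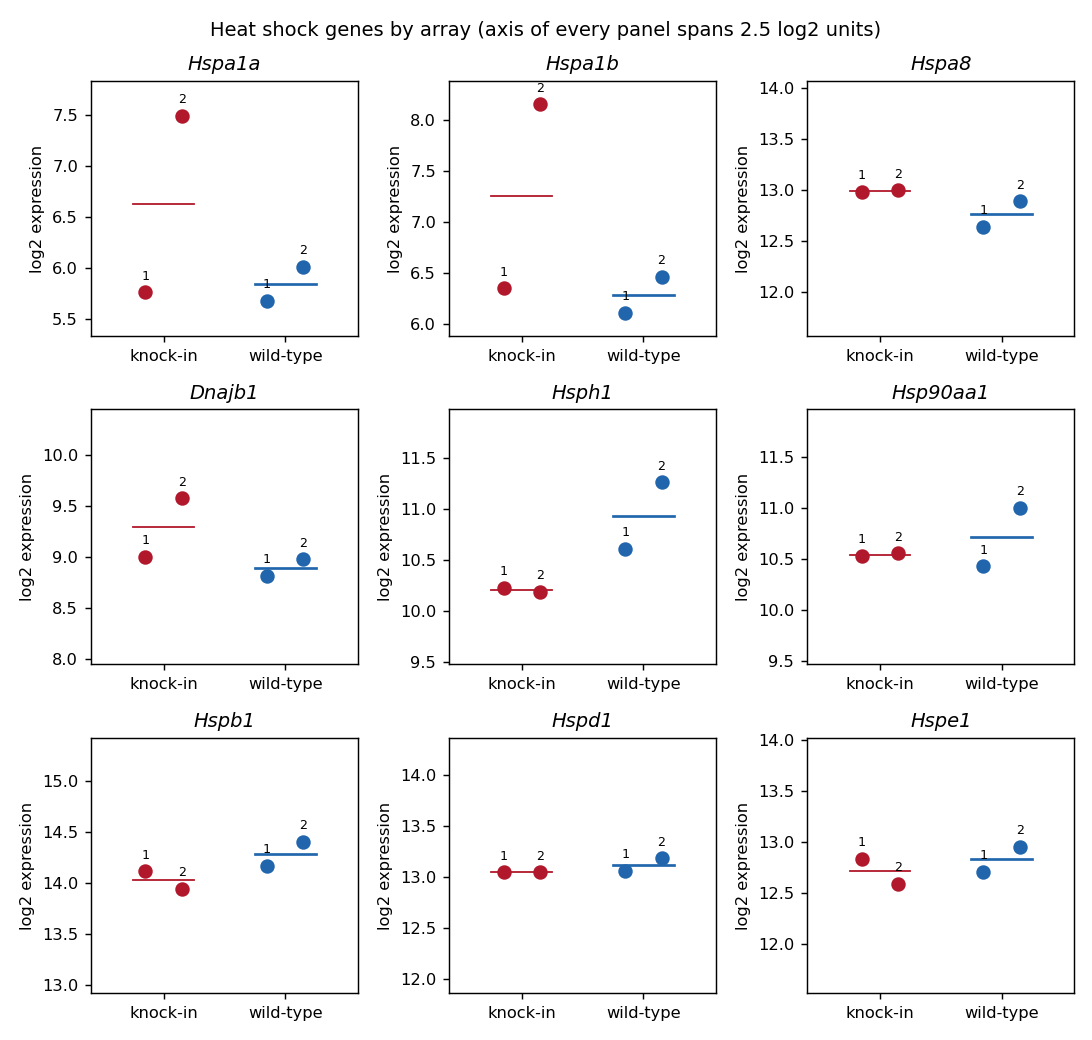
Log2 expression of the main probe set of each heat shock gene on the 4 arrays, knock-in (red) left of wild-type (blue), with the replicate number above each point and a line at the group mean. The second knock-in array stands apart for Hspa1a, Hspa1b and Dnajb1, and both knock-in points of Hsph1 lie below both wild-type points.

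The stress-inducible HSP70 genes come first. Hspa1b was at 6.35 and 8.15 in the knock-in arrays, against 6.11 and 6.47 in the wild-type arrays (log2 values of its main probe set, 1427126_at). Only the second knock-in array was high, and the first lay between the wild-type arrays. The groups averaged 7.25 ± 1.27 in knock-in and 6.29 ± 0.25 in wild-type hearts (SD, n = 2 each), a difference of 0.96 with a 95% interval from -0.35 to 2.27 and an adjusted p of 0.891 from limma. Without the second knock-in array the difference was 0.06, and without the first it was 1.86.

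The other Hspa1b probe sets had the same order. Probe set 1427127_x_at was at 6.44 and 8.13 in knock-in hearts, against 5.57 and 6.53 in wild-type hearts, and had the largest difference of any heat shock probe set, 1.23 (adjusted p = 0.869 from limma). Probe set 1452318_a_at was at 5.64 and 7.30 in knock-in hearts, against 5.48 and 6.05 in wild-type hearts. Each of these probe sets put the second knock-in array highest and the first wild-type array lowest. The suffixes mark probe sets whose probes can match more than one transcript.

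Hspa1a, the neighbouring HSP70 gene, was at 5.76 and 7.49 in knock-in hearts, against 5.68 and 6.01 in wild-type hearts. Its difference was 0.78 (95% interval -0.47 to 2.04, adjusted p = 0.915 from limma) and -0.08 without the second knock-in array. The genes are near-identical copies, and after each was centred on its own mean, the main probe sets of Hspa1a and Hspa1b differed by a root mean square of 0.09 over the 4 arrays. A probe set may not tell them apart, so counts that include both genes may count the same transcripts more than once.

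Hspa8, the constitutive HSP70, had 4 probe sets, which differed in their pattern over the arrays. Its main probe set 1455789_x_at was at 12.98 and 12.99 in knock-in hearts, against 12.64 and 12.89 in wild-type hearts. Both knock-in arrays were above both wild-type arrays, by a mean difference of 0.23 (95% interval -0.07 to 0.52, adjusted p = 0.886 from limma), which was 0.10 when wild-type 1 was left out and 0.35 when wild-type 2 was. The same order held for 1420622_a_at, at 10.02 and 10.04 in knock-in hearts, against 9.55 and 9.77 in wild-type hearts, a difference of 0.37 with an unadjusted p of 0.0197 and an adjusted p of 0.775 from limma. Probe set 1420623_x_at was at 12.75 and 12.91 in knock-in hearts, against 12.66 and 12.86 in wild-type hearts, and its groups overlapped. The fourth, 1431182_at, was at 5.69 and 7.26 in knock-in hearts, against 5.42 and 5.50 in wild-type hearts. It thus resembled Hspa1b and not the other Hspa8 probe sets, with the second knock-in array 1.57 above the next array.

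**Figure D2:**
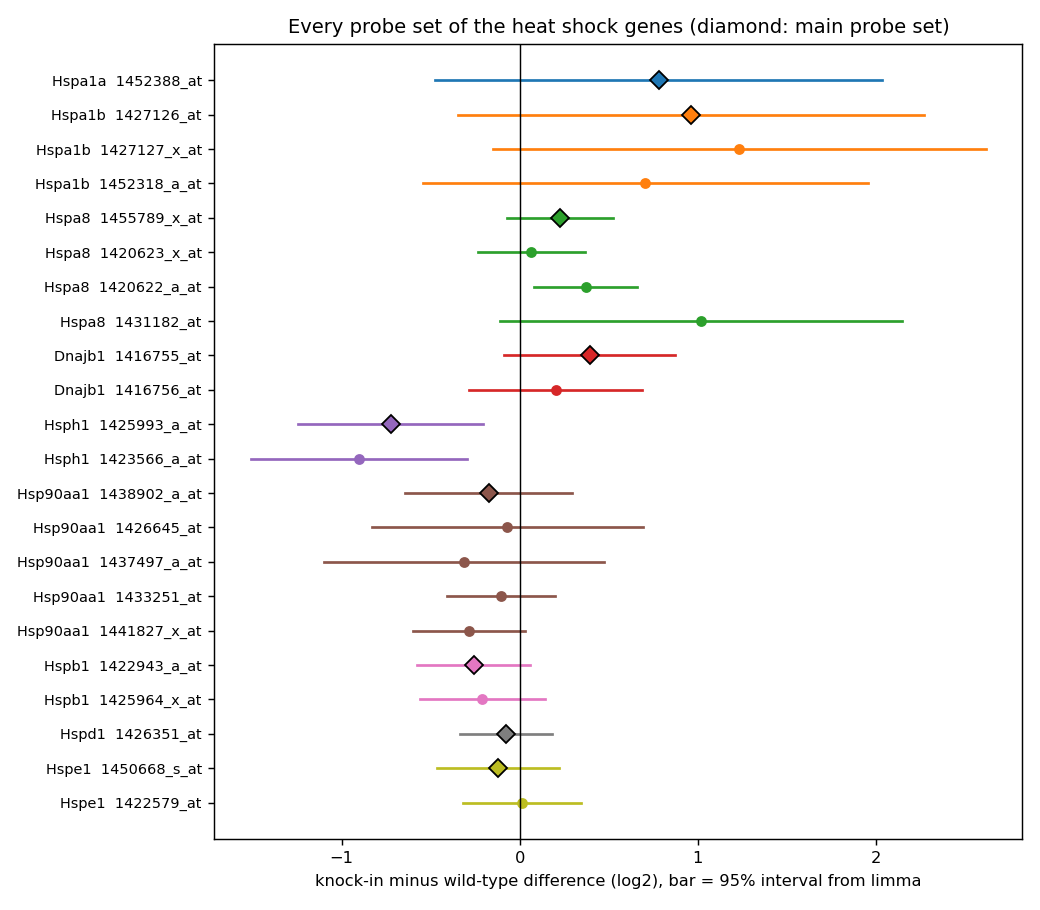
Knock-in minus wild-type difference on the log2 scale for all 22 heat shock probe sets, with 95% intervals from limma and diamonds for the main probe set of each gene. The intervals of both Hsph1 probe sets and of Hspa8 1420622_a_at do not span 0, before adjustment over all probe sets, and those of Hspa1a and Hspa1b are the widest.

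Dnajb1, the J-domain partner that HSP70 uses in the stress response, was at 9.01 and 9.58 in knock-in hearts, against 8.82 and 8.98 in wild-type hearts (1416755_at). Both knock-in arrays were above, the first by little. The difference was 0.39 (95% interval -0.09 to 0.87, adjusted p = 0.872 from limma) and 0.11 without the second knock-in array. In its other probe set, 1416756_at, the values were 7.56 and 8.16 in knock-in hearts, against 7.65 and 7.66 in wild-type hearts, so the first knock-in array lay below both wild-type arrays and the second above them.

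Hsph1, the HSP110 protein that resets HSP70, was lower in knock-in hearts, without passing the test. It was at 10.23 and 10.19 in knock-in hearts, against 10.61 and 11.26 in wild-type hearts (1425993_a_at). The knock-in arrays nearly coincided and the wild-type arrays were 0.65 apart, with no overlap. The means were 10.21 ± 0.03 in knock-in and 10.94 ± 0.46 in wild-type hearts (SD, n = 2 each), a 1.65-fold lower level, a difference of -0.72 with a 95% interval from -1.24 to -0.21. Its unadjusted p was 0.0140 and its adjusted p 0.727 from limma.

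The second Hsph1 probe set, 1423566_a_at, was at 7.91 and 8.25 in knock-in hearts, against 8.63 and 9.34 in wild-type hearts. Here too the groups did not overlap, and the difference of -0.90 (1.87-fold lower, unadjusted p = 0.0107, adjusted p = 0.700 from limma) was the most negative of the 22. The size of the main difference depended on the wild-type arrays, which were 0.65 apart: it was -1.05 when wild-type 1 was left out and -0.40 when wild-type 2 was.

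Hsp90aa1, the stress-inducible cytosolic HSP90, was at 10.53 and 10.56 in knock-in hearts, against 10.43 and 11.01 in wild-type hearts (1438902_a_at). The knock-in arrays lay between the wild-type arrays. Its difference was -0.17 (95% interval -0.64 to 0.30, adjusted p = 0.957 from limma), and it was 0.11 without wild-type 2. Of its other probe sets, 1426645_at was at 10.33 and 10.64 in knock-in hearts, against 10.06 and 11.05 in wild-type hearts, and 1437497_a_at was at 9.35 and 9.71 in knock-in hearts, against 9.34 and 10.35 in wild-type hearts. The wild-type arrays thus enclosed the knock-in arrays in all 3. The dimmer 1433251_at (5.49 and 5.23 in knock-in hearts, against 5.47 and 5.46 in wild-type hearts) and 1441827_x_at (3.70 and 3.87 in knock-in hearts, against 4.19 and 3.96 in wild-type hearts) differed by -0.11 and -0.28.

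Hspb1, a small heat shock protein abundant in heart muscle that holds unfolded proteins without ATP, was at 14.12 and 13.95 in knock-in hearts, against 14.17 and 14.41 in wild-type hearts (1422943_a_at). Both knock-in arrays were below, the first by only 0.06. Its difference was -0.26 (95% interval -0.57 to 0.06, adjusted p = 0.875 from limma), -0.14 without wild-type 2 and -0.17 without knock-in 2. Its other probe set, 1425964_x_at, was at 13.67 and 13.50 in knock-in hearts, against 13.64 and 13.95 in wild-type hearts, and those groups overlapped.

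The mitochondrial chaperonin genes, whose promoter windows overlap, differed little between the groups. Hspd1, the barrel subunit, was at 13.04 and 13.04 in knock-in hearts, against 13.06 and 13.18 in wild-type hearts. Its difference was -0.08 (95% interval -0.33 to 0.18, adjusted p = 0.971 from limma), with both knock-in arrays below, and it ran from -0.14 without wild-type 1 to -0.017 without wild-type 2. Hspe1, the lid subunit, was at 12.84 and 12.59 in knock-in hearts, against 12.71 and 12.96 in wild-type hearts (1450668_s_at), a difference of -0.12 (95% interval -0.46 to 0.22). The groups overlapped. Its probe set 1422579_at was at 10.67 and 10.58 in knock-in hearts, against 10.46 and 10.76 in wild-type hearts, a difference of 0.01. These intervals leave room for changes of up to 0.46 in size on the log2 scale.

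**Figure D3:**
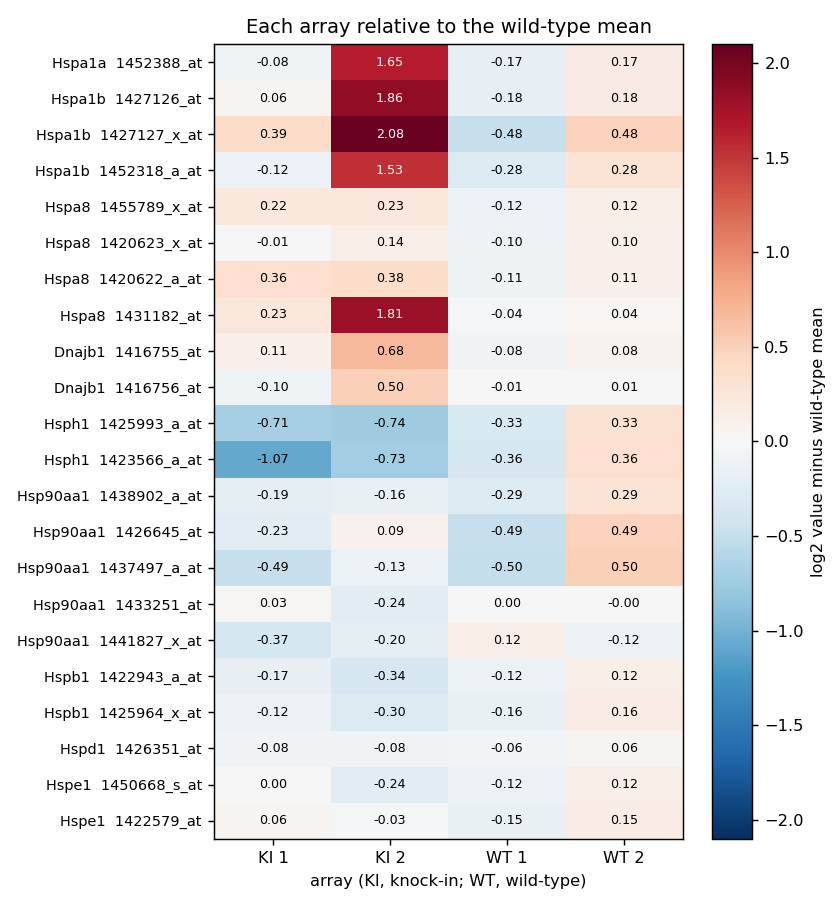
Each of the 22 heat shock probe sets on each array, as its log2 value minus the wild-type mean, red above and blue below. The strongest colours lie in the second knock-in array, at 1.53 to 2.08 for Hspa1a, Hspa1b and Hspa8 1431182_at, while the Hsph1 probe sets are blue in both knock-in arrays.

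Arrays of the same group also stood apart for these genes. The second knock-in array exceeded every other array by at least 1 on the log2 scale in 5 of the 22 heat shock probe sets, namely those of Hspa1a and Hspa1b and Hspa8 1431182_at, compared with 0.0577% of all probe sets (26 of 45037). This margin was chosen after the values had been seen. The 5 are 22.7% of the heat shock probe sets and 19.2% of the 26. Those of Hspa1a and Hspa1b may measure the same transcripts, so the 5 are not separate counts. Within the wild-type group, wild-type 2 was above wild-type 1 in all 9 genes and in 20 of the 22 probe sets, compared with 42.9% of all probe sets. The median SD of the 9 genes was 0.12 in knock-in and 0.18 in wild-type hearts, compared with 0.08 and 0.10 over all probe sets.

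By the rule set for it, the profile over the 4 arrays was matched to that of Hspa1b, the heat shock gene with the widest range of its main probe set. Among genes above the median, the 5 with the smallest root mean square difference of centred log2 values were Hspa1a (0.09), Fmr1nb (0.18), Fos (0.22), Clec2d (0.29) and Egr1 (0.32). Fos, an immediate early transcription factor, was at 6.96 and 9.24 in knock-in hearts, against 6.66 and 7.39 in wild-type hearts. Egr1, another immediate early factor, was at 8.65 and 9.89 in knock-in hearts, against 8.70 and 8.83 in wild-type hearts. In both, as in Hspa1b, only the second knock-in array was high. With 4 arrays such a likeness is a description of these samples.

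Other chaperone genes, taken as lists and 1 probe set each, did not pass either. The counts below are of an unadjusted limma p under 0.05, which 6.44% of the 18193 genes had. Among other small heat shock proteins, all 6 were higher in the knock-in mean, as were 9139 of the 18193 genes, with a median difference of 0.06. The second knock-in array was the highest for all 6 (28.9% of genes), and the groups overlapped for 4. Only 1 had such a p. That was Hspb3, a muscle-specific small heat shock protein, at 9.45 and 9.74 in knock-in hearts, against 9.19 and 8.87 in wild-type hearts (difference 0.56, adjusted p = 0.703). Cryab, the alpha B-crystallin of heart muscle, differed by 0.05. Of 7 other cytosolic HSP70 and HSP110 genes, 2 had such a p, both higher, Hspa12a (0.34) and Hspa4 (0.25), an HSP110 relative of Hsph1. Hspa4 was at 10.58 and 10.52 in knock-in hearts, against 10.29 and 10.31 in wild-type hearts, so it lay on the opposite side to Hsph1. Hspa4l, another such relative, was at 9.33 and 9.68 in knock-in hearts, against 9.42 and 9.68 in wild-type hearts, and those groups overlapped.

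Of 19 co-chaperones, 2 had such a p, both lower. They were Ahsa1, which stimulates the HSP90 ATPase, at 11.50 and 11.40 in knock-in hearts, against 11.65 and 11.79 in wild-type hearts (difference -0.28), and its relative Ahsa2 (-0.34). Bag3, which links HSP70 to autophagy and is an Hsf1 target, differed by 0.18, with 12.01 and 12.11 in knock-in hearts, against 11.88 and 11.87 in wild-type hearts. None of 10 other J-domain proteins of the cytosol had such a p, and 7 of them were higher in the knock-in mean, with a median of 0.13. Dnaja1, another J-domain partner of HSP70, differed by 0.28 with overlapping groups.

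In mitochondria, 1 of 13 other chaperones and proteases had such a p, the nucleotide exchange factor Grpel2 (0.30), and their median was 0.11. None of the 8 subunits of TRiC, the cytosolic chaperonin, had one (median -0.05). Of 4 genes listed with the heat shock factors, Hsf2bp (-0.50) had one and Hsf2 (-0.09) and Hsf4 (0.14) did not. Hsf1 was not analysed here.

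Chaperones of the endoplasmic reticulum had the lowest median of the chaperone lists. Of the 16, 15 were lower in the knock-in mean, 10 with an unadjusted p under 0.05 (2.60% of genes were lower with such a p), and for 11 the knock-in arrays lay wholly below the wild-type arrays (17.0% of genes). Their median difference was -0.57, whereas that of the 9 cytosolic and mitochondrial heat shock genes was -0.08 (0.11 without wild-type 2). Hspa5, the HSP70 of that compartment, was at 12.51 and 12.52 in knock-in hearts, against 13.11 and 13.30 in wild-type hearts (difference -0.69, adjusted p = 0.417). Hyou1, its HSP110 partner and the counterpart of Hsph1, was at 9.39 and 9.52 in knock-in hearts, against 10.39 and 10.21 in wild-type hearts (difference -0.85, adjusted p = 0.374). Hsph1 was thus lower together with the HSP110 of the endoplasmic reticulum, but its cytosolic relative Hspa4 was higher (difference 0.25). Another cytosolic relative, Hspa4l, hardly differed (-0.05). Hspa8 was not lower with Hspa5. No adjusted p from limma passed in this list, and no test was made between the lists.

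**Figure D4:**
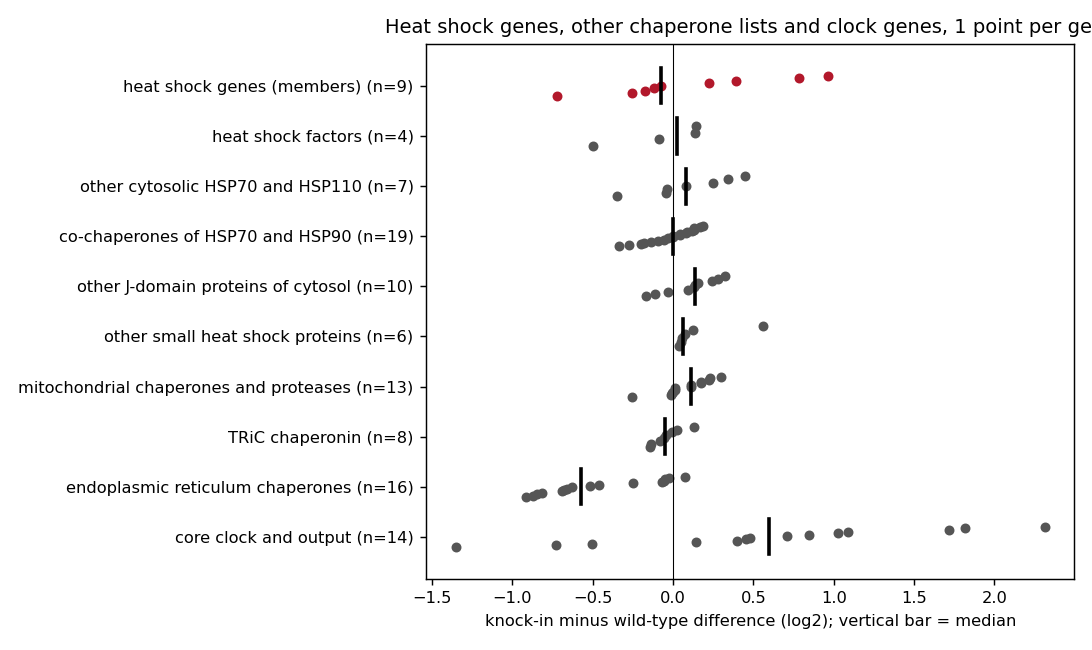
Knock-in minus wild-type difference on the log2 scale of every measured gene (points, main probe set) in the heat shock genes (red), in the other chaperone lists and in the clock genes (grey), with the median of each list as a vertical bar. The endoplasmic reticulum list has a median of -0.57, the medians of the heat shock genes and the other chaperone lists lie between -0.08 and 0.13, and that of the clock genes is 0.60.

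Heart muscle markers had similar values in all arrays, and none of the marker and clock genes passed the test. The 8 cardiomyocyte markers differed by 0.00 to 0.09, and their summed linear level was 174568 and 179338 in knock-in hearts, against 168285 and 173276 in wild-type hearts. Most of them lay near the highest log2 value of the arrays (14.90 to 14.99). Mb, for example, was at 14.87 and 14.91 in knock-in hearts, against 14.77 and 14.85 in wild-type hearts. Whether signals this high still follow the amount of RNA was not tested. For all 6 hepatocyte markers the knock-in arrays lay wholly above the wild-type arrays (19.6% of genes). Their summed linear level was 1236 and 2108 in knock-in hearts, against 577 and 404 in wild-type hearts. The second knock-in array, where Hspa1b was highest, also had the highest sum. Of 5 listed adipocyte markers, the 3 analysed summed to 231 and 246 in knock-in hearts, against 186 and 192 in wild-type hearts. Only Adipoq accounted for this (difference 1.13), as Lep (0.03) and Retn (0.0073) hardly differed and their groups overlapped. All 4 smooth muscle markers were lower in the knock-in mean, as were 9054 of the 18193 genes, and the groups overlapped for 2. Myh11 differed by only -0.013. The smooth muscle sums were 7107 and 6124 in knock-in hearts, against 7997 and 7847 in wild-type hearts. All 5 lymphocyte markers were lower too, with overlap for 3. The lymphocyte sums were 392 and 392 in knock-in hearts, against 455 and 421 in wild-type hearts. Of these markers, Ms4a1 and Cd3g lay below the median of every array. Sums of endothelial, fibroblast, macrophage and erythrocyte markers overlapped between the groups, and each was highest in the second knock-in array. The erythrocyte sum was 488 and 667 in knock-in hearts, against 580 and 415 in wild-type hearts. It included Hba-a1, which lay below the median of every array. Hba-a2, outside the list and named after its values had been seen, was at 6.38 and 7.56 in knock-in hearts, against 6.47 and 6.48 in wild-type hearts. RMA values are never 0, so no marker was at 0. Of 14 clock genes, 9 were higher and 3 lower at an unadjusted limma p under 0.05, compared with 3.84% and 2.60% of genes. Cirbp, a cold-inducible RNA-binding protein, differed by 0.49. The part of the marker genes, the clock genes and Cirbp in the heat shock values was not tested.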

How the data were processed

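Transcript levels in mouse heart were measured on Affymetrix expression arrays, 2 of GSK-3beta knock-in and 2 of wild-type samples. The deposited values are log2 expression per probe set. Per the submitters' processing notes the authors made them with RMA in Affymetrix Expression Console, and per the labels the wild-type arrays were normalized together with these knock-in arrays alone. RMA gives no detection call, and quantile normalization sets the arrays to a common distribution. Array medians were between 5.97 and 6.04.

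The platform annotation gave 1 symbol for 34945 probe sets, several for 932 and none for 9160, and 64 controls were left out. Symbols were updated through Entrez identifiers for 34741 (RefSeq table, GRCm38.p6). Knock-in minus wild-type differences came from limma 3.58.1 (lmFit and eBayes, R 4.3.3) over all 45037 probe sets, without dim-value filter, trend or robust prior. The fit was also run on data simulated from its own fitted spread, with independent arrays. That checks the code and cannot show whether these arrays follow the model. A gene is represented by its brightest probe set, which left 18193 genes for the lists. All members, the up to 4 list genes of smallest p, and the 5 closest profiles were eligible to be named. The members and lists were chosen with earlier results of these data known. Alternatives are given in the closing section. Group and replicate came from the sample titles. The number of arrays limits the precision.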

Additional observations from a re-analysis of the deposited data

How the results depend on the processing

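No heat shock gene passed under any of 13 alternatives. Over all probe sets 0 passed, compared with 19 with an intensity trend and robust prior, 8 with quantile normalization and 1 gene with one probe set per gene. Some alternatives leave the difference of a gene as it is, so its sign could not change under them. They are the intensity trend and robust prior, the replicate block and the test against a minimum change. The limits to probe sets above the median and to one probe set per gene are others. Of 117 values of single genes under the alternatives, these included, 112 kept their sign. The 5 that did not were Hsp90aa1 (0.11) and Hspe1 (0.0012) without wild-type 2, Hspa1a (-0.084) and Hspe1 (0.0032) without knock-in 2, and Hspe1 with the probe set listed first (0.011). When 1 array was left out, Hspa1a ran from -0.084 to 1.65, Hsp90aa1 from -0.46 to 0.11 and Hspe1 from -0.24 to 0.0032. The median difference of the 9 genes ran from -0.14 to 0.11 when 1 array was left out, and it was 0.11 without wild-type 2. Where an array is left out, the lone array of its group is assumed to vary like the other group. With the replicate number as a replicate block, 0 heat shock genes passed and the median was -0.08. Knock-in 1 minus 2 and wild-type 1 minus 2 correlated at -0.05 over probe sets. A correlation over all probe sets cannot show whether arrays of the same number were handled together. The number of arrays limits every interval given.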

Other observations

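The 26 probe sets in which the second knock-in array exceeded every other array by at least 1 on the log2 scale held 21 that are not of heat shock genes. Among these were the immediate early genes Fos, Egr1 and Nr4a1, the transferrin receptor Tfrc with 2 probe sets, and Hba-a2. Others were genes abundant in liver, such as Fabp1, Ttr, Apoa1, Apoc1, Alb and Cyp3a11. Nr4a1 was at 9.63 and 10.81 in knock-in hearts, against 9.72 and 9.69 in wild-type hearts. For Alb the first knock-in array was also above both wild-type arrays, at 8.58 and 9.66 in knock-in hearts, against 7.01 and 5.54 in wild-type hearts. The same margin was reached by 0 probe sets for the first knock-in array, 3 for wild-type 1 and 7 for wild-type 2. These genes were named after their values had been seen.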
